A study of Drosophila melanogaster with 4 samples.

Results

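Sh (Shaker, FBgn0003380) is the fruit fly gene for the pore-forming subunit of a voltage-gated potassium channel. Its circular RNAs (circRNAs) were taken as every entry of the deposited circRNA table that carries the symbol Sh, which gave 3 circRNAs of the 2563 listed. The gene itself was chosen by its number of reads over all samples, which is high for 1 of these circRNAs. Its reads are therefore given as a description and were not tested. The table comes from ribosome footprinting of heads of Drosophila melanogaster, in which RNA fragments covered by ribosomes are kept and sequenced. The labels name 4 libraries of ribosome bound RNA from fly heads: 2 replicates for low detergent and 2 for high detergent. Per the labels' protocols, heads 1 and 2 were homogenized by an earlier published method, and heads 3 and 4 were frozen and lysed in a HEPES and acetate buffer with Triton detergent and cycloheximide, which stalls ribosomes. The sources used here do not give strain, age or sex of the flies. The table has a column for each head number, and the labels tie the head numbers to these lysis methods but not to the names low and high detergent or to a replicate. Those columns were not used here, so the values below are counts over all samples with no replicate error. The table lists circRNAs and not other RNAs, so marker genes of the head were not examined.

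Shaker channels open when a neuron or muscle fibre depolarizes and then inactivate within moments, which gives the A-type current that helps end an action potential and sets the interval to the next. Flies that lack the channel shake their legs under ether, the behaviour that gave the gene its name, and short-sleeping alleles are known. A tetramer of alpha subunits forms the pore. The gene makes many proteins from alternative first exons, which give different N-terminal ends, and from alternative last exons. The N-terminal end of some isoforms is the ball that plugs the open pore. A circRNA forms by back-splicing, in which a splice donor joins an acceptor that lies upstream of it, and the closed ring has neither a cap nor a poly(A) tail. Footprint reads over such a junction are the kind of evidence used to ask whether a circle is bound by ribosomes. The reads counted in the table are taken to be of that kind, which the table does not state.

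The 3 Sh circRNAs came from 3 separate places of the gene, and each matched a whole number of annotated exons. All 3 lie on chromosome X, and the annotated gene is on the minus strand, so the highest coordinates are nearest to its 5′ end. The first, called the start codon circle here, spans positions 17933118 to 17934416 of the dm3 genome build, a distance of 1299 bp. The second, the internal circle, spans 17844644 to 17845643, or 1000 bp. The third, the stop codon circle, spans 17834753 to 17835190, or 438 bp. These positions take the first coordinate of the table as counted from 0. The annotation used for exons is on a later build, BDGP6, and no position was carried from one to the other. Instead, each span was compared with the lengths of all runs of 1 or more consecutive exons in the Sh transcripts, introns between them included. Each of the 3 spans equalled such a run exactly, and each did so at a single place in the gene. The distances between the circles gave the same placement: 87474 bp lie between the start codon and internal circles in dm3, and 87474 bp lie between the matched exon runs in BDGP6. Between the internal and stop codon circles the distance was 9453 bp in both builds. Over the whole table, 1954 of the 2563 circRNAs (76.2%) had such a match.

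**Figure D1:**
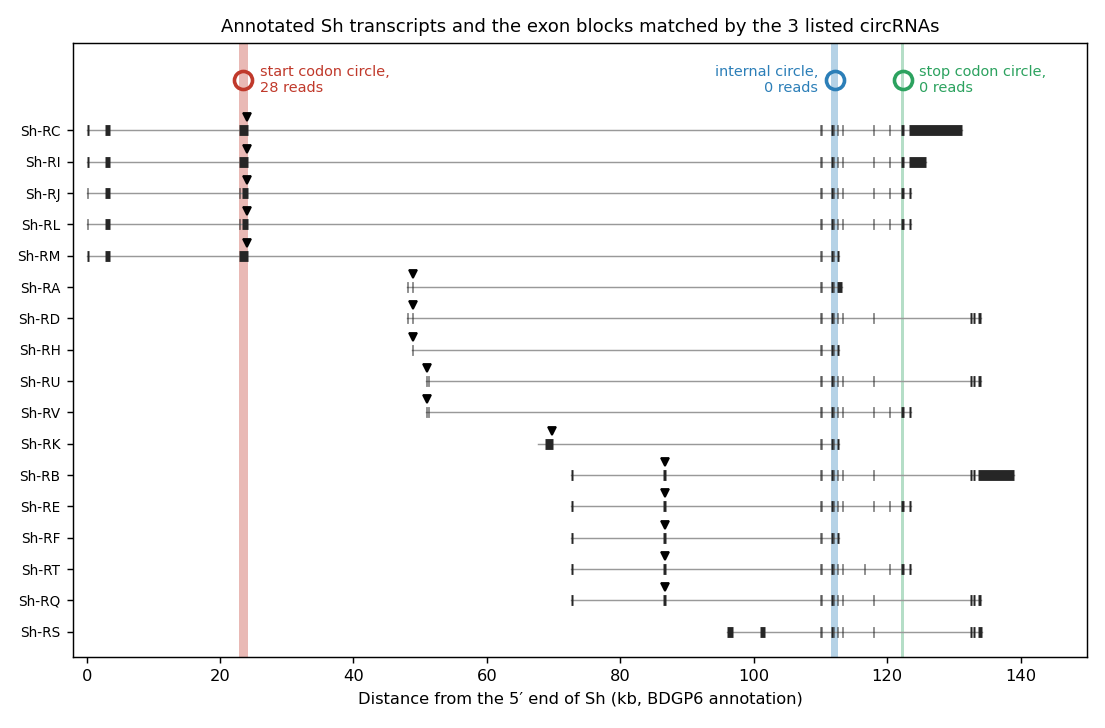
Each line is 1 of the 17 annotated Sh transcripts, against distance in kb from the 5′ end of the gene. Exons are black boxes, introns are grey lines and a triangle is the annotated start codon, which Sh-RS lacks. Coloured bands are the exon runs that the 3 listed circRNAs matched. The band with 28 reads crosses only the 5 transcripts that begin farthest upstream. The other 2 bands, with 0 reads, lie beyond 110 kb.

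The start codon circle held the first coding exon of the Sh transcripts that begin farthest upstream. In the BDGP6 annotation the gene covers 138.9 kb and has 17 transcripts, with 5 different start codons among them. Of these transcripts, 1 (Sh-RS) has no annotated start codon. The exon run of this circle begins 22.9 kb from the 5′ end of the gene and belongs to 5 of the 17 transcripts, all of which take the most upstream start codon. In Sh-RC, Sh-RI and Sh-RM the run is 1 exon of 1299 bases, exon 3 of the transcript. In Sh-RJ and Sh-RL it is 2 exons of 182 and 873 bases, exons 4 and 5, with an intron of 244 bases between them. The span alone does not tell which of these forms the circle has, and its exonic length is therefore 1299 or 1055 bases. In either form the start codon is held in full, in all 5 of the matching transcripts.

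Most of the start codon circle is 5′ untranslated sequence. With the longer form, 1153 bases lie before the start codon and 146 coding bases lie from the start codon to the splice donor, so 88.8% of the circle is untranslated. These 1153 bases are 48.3% of the 2388 bases of 5′ untranslated sequence in Sh-RC. The 146 coding bases are 7.57% of the coding sequence of Sh-RC, which has 1929 bases. The coding part makes 48 whole codons and leaves 2 bases, so the frame set by this start codon crosses the back-splice junction inside a codon and enters the untranslated part of the circle. The longer form has a length divisible by 3, whereas the spliced form of 1055 bases, with 909 bases before the start codon, leaves a remainder of 2 bases.

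The introns on both sides of this circle are long. The upstream intron has 19351 bases and the downstream intron 85738 bases, the same in all 5 matching transcripts. The downstream intron is the longest intron of any annotated Sh transcript and takes up 61.7% of the gene. The other 4 annotated start codons of Sh lie within it, at 48.9, 51.0, 69.8 and 86.7 kb from the 5′ end of the gene, and 12 of the 17 transcripts begin within it. These 12 transcripts do not contain the exon run of the circle.

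The internal circle held 3 exons of the part that most Sh transcripts share. The exons have 196, 122 and 154 bases, which add up to 472 bases, all of them coding, with 528 bases of intron between them. The first and second of these exons occur in all 17 annotated transcripts, and the third in 12. The whole run matched 12 transcripts. It begins 112 kb from the 5′ end of the gene, holds neither a start nor a stop codon, and makes up 25.5% of the coding sequence of Sh-RB. Its exonic length leaves a remainder of 1 base when divided by 3. The flanking introns are short, with 1066 bases upstream and 518 bases downstream.

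The stop codon circle was 1 exon of 438 bases from the alternative 3′ part of the gene. The exon occurs in 6 of the 17 transcripts, in each of them as the last exon but one, and begins 122 kb from the 5′ end of the gene. It holds 428 coding bases, the stop codon and 7 bases of 3′ untranslated sequence. The coding bases are 22.2% of the coding sequence of Sh-RC. The neighbouring introns have 1624 bases upstream and 765 bases downstream. By annotation, 3 transcripts (Sh-RC, Sh-RI and Sh-RJ) contain the exons of all 3 circles, and 4 contain those of none.

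The reads of Sh fell on a single circle. The start codon circle had 28 reads over all samples (95% exact Poisson interval 18.6 to 40.5), the internal circle had 0 and the stop codon circle had 0. A count of 0 was read against a set floor of 3 reads, or 1.30% of the 230 reads in the table. The 95% exact Poisson upper limit for 0 reads is 3.69, and the exact upper limit of the share is 1.59%. Of all listed circRNAs, 4.76% had at least 1 read, so 0 reads was also the usual value in the table. Since the gene was chosen for these reads, nothing about Sh is read from that share. Intervals and floors cover counting error only, and reads copied by PCR are not told apart.

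**Figure D2:**
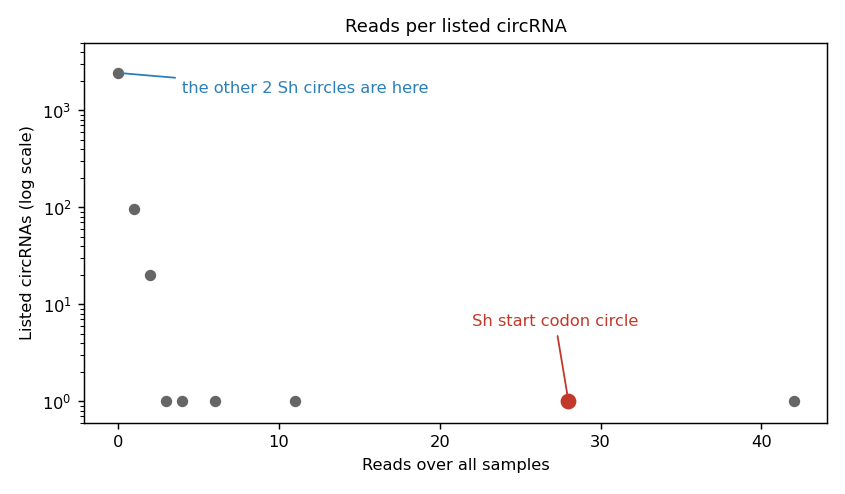
Each point gives how many listed circRNAs (y axis, log scale) had a given number of reads over all samples (x axis). The Sh start codon circle stands at 28 reads, between 1 circRNA at 42 and 1 at 11, and its other 2 circles are among the 2441 at 0.

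Within the whole table, the Sh start codon circle held 12.2% of the 230 reads (exact Clopper-Pearson interval 8.24% to 17.1%) and was second in rank. A circRNA of mbl (muscleblind, an RNA-binding splicing regulator) had more, with 42 reads (Poisson interval 30.3 to 56.8), and the intervals of these 2 counts overlap. Next in order came kis (kismet, which remodels chromatin), whose circle had 11 reads (5.49 to 19.7). The intervals of Sh and kis overlap as well, from 18.6 to 19.7 reads. Overlap of intervals is not a test of the difference between 2 counts, and no such test was run. On chromosome X, the other 380 listed circRNAs had 20 reads together, with no more than 2 on any one, against 28 on this Sh circle. Per kb of genomic span, the Sh circle had 21.6 reads against 64.2 for mbl and 12.2 for the circRNA of stw (straw, a laccase of cuticle tanning), and it was second in rank by this measure too.

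In its exonic content the Sh circle was closer to the mbl circle than to the other circRNAs with most reads. Both consist of 1 exon in the form used here, hold the annotated start codon and carry more untranslated than coding sequence. For mbl the exon has 654 bases, 465 before the start codon and 189 coding. The circles of kis, stw, CG34126 and Cip4 (an F-BAR protein that bends membranes), with 11, 6, 4 and 3 reads, held 1487, 490, 708 and 425 bases, all of them coding and none with a start or stop codon. The introns next to the mbl circle have 9198 and 75030 bases, and those next to the kis circle have 928 and 863.

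**Figure D3:**
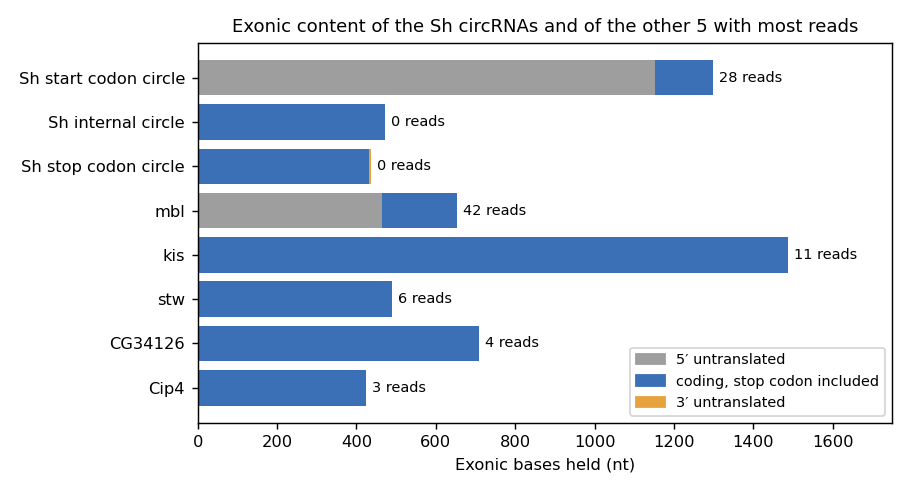
Bars give the exonic bases (x axis, nt) of the 3 Sh circles in the form with most exonic bases and of the other 5 circRNAs with most reads, split into 5′ untranslated, coding and 3′ untranslated sequence, with the reads over all samples beside each bar. The Sh start codon circle, with 1153 untranslated and 146 coding bases, and the mbl circle, with 465 and 189, are the ones with 5′ untranslated sequence.

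In span, the start codon circle lay near the middle of the table. Its 1299 bp compared with a median of 1042.5 bp over the other 2560 listed circRNAs (quartiles 457.75 and 2551.25 bp), and 57.5% of them were shorter. Among the 723 other circRNAs that held a start codon the median span was 1389 bp, and 47.4% were shorter. Among the 228 of these that consist of 1 exon, the median was 757.5 bp and 84.2% were shorter than the Sh circle. The internal circle, at 1000 bp, was longer than 49.0% of the other listed circRNAs, and the stop codon circle, at 438 bp, was longer than 24.1%. Of the 60 other circRNAs with a stop codon, 6.67% were shorter than the one of Sh, against a median of 2194 bp.

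The amount of 5′ untranslated sequence placed the Sh start codon circle near the top of its class. The other 723 circRNAs with a start codon held a median of 155 untranslated bases before it (quartiles 45.5 and 321), against 1153 in Sh, and 98.5% of them held less. The 11 that held more came from 10 genes, among them Octbeta2R (an octopamine receptor) with 2165 bases, nAChRalpha6 (a subunit of the nicotinic acetylcholine receptor) with 1846, and Cngl (related to cyclic nucleotide-gated channels) with 1513. Of these 11, only the circle of CG17162, with 1203 untranslated bases, had a read, and it had 1. The coding part of the Sh circle was short: 12.0% of the same 723 held fewer than its 146 coding bases, and their median was 551.

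The flanking introns of the Sh start codon circle were also among the longest. Its upstream intron of 19351 bases was longer than that of 88.8% of the other circRNAs with a coding exon match, whose median was 3805 bases. Its downstream intron of 85738 bases was longer than that of 99.6% of them, with a median of 2396.5. Of 1915 other circRNAs with an intron on each side, 2 had both introns at least as long, and both hold a start codon. One came from SKIP, with introns of 24509 and 103624 bases and 0 reads, and one from mgl (megalin, an endocytic receptor), with introns of 22407 and 88633 bases and 2 reads. Of 42 other circRNAs whose shorter flanking intron was at least as long as that of Sh, a read was present for 3 (7.14%, exact interval 1.50% to 19.5%), compared with 5.85% of all 1915. The internal and stop codon circles of Sh lay on the other side of the medians, with upstream introns longer than 19.8% and 29.0% of the others and downstream introns longer than 14.2% and 20.4%.

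**Figure D4:**
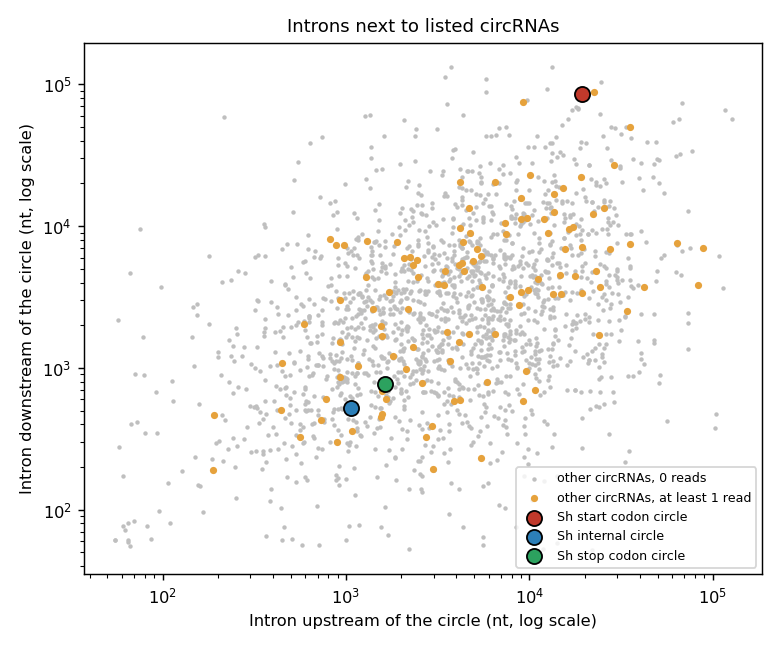
Each point is a listed circRNA with a coding exon match, placed by the length of the annotated intron upstream (x axis, nt, log scale) and downstream (y axis, nt, log scale), with circRNAs that had a read in orange. The Sh start codon circle lies at the upper edge, at 19351 and 85738 bases, and the other 2 Sh circles lie low, at 1066 and 518 bases (internal) and 1624 and 765 bases (stop codon).

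Each Sh circle was also set against listed circRNAs of its own kind. Of the other 723 circRNAs with a start codon, 56 had a read (7.75%, exact interval 5.90% to 9.94%). Their reads summed to 109, with 42 on mbl alone, and 43 of the 56 had exactly 1 read. Of the 60 others with a stop codon, 2 had a read (3.33%, 0.406% to 11.5%), with 2 reads each. Over all 2560 other listed circRNAs, the share with a read was 4.73%. Of the 1096 others that were wholly coding with neither a start nor a stop codon, 51 had a read (4.65%, 3.48% to 6.07%), with at most 11. The 0 reads of the internal and stop codon circles were thus shared by 1045 of these 1096 and by 58 of the 60. Of the 120 other host genes with exactly 3 listed circRNAs, 18 had any read and none had more than 6 reads on a circle. The share of all host genes with a read was not computed, so nothing is read from the count of 18.

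Of the listed circRNAs with an exon match, the 5 closest to the Sh start codon circle in span had 1 read together. They differed from it by 2 to 5 bp. Their hosts were vtd (a cohesin subunit), fry, scrib (a polarity scaffold protein), fwd (a lipid kinase) and lncRNA:CR44999. The table names this last one, a long noncoding RNA, dm. The fwd circle, a single exon of 1294 bases with a start codon, had 290 bases before the start codon and 1004 coding, and it had 1 read. The other 4 had 0 reads. Within 50 bp of the Sh span, 67 other circRNAs were listed, and 7 of them had a read (10.4%, against 4.76% of all listed circRNAs), with at most 2.

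Among potassium channel genes, Sh had 28 of the 31 reads. Of the 20 genes in this list, 11 had a listed circRNA, 49 circRNAs in all. Without Sh, 46 circRNAs from 10 genes were left, and 3 of them had a read (6.52%, exact interval 1.37% to 17.9%), each with 1. This share is near the 4.76% of all listed circRNAs. These were a circle of Shal (a channel of the same superfamily that also carries A-type current), one of slo (the BK calcium-activated channel) and one of SK (the small-conductance calcium-activated channel). Each of these counts of 1 has an exact Poisson interval of 0.0253 to 5.57. The 17 circles of slo, 10 of SLO2 and 8 of SK outnumbered the 3 of Sh. No read was counted on the 10 circles of SLO2, the 3 of eag, the 2 each of Elk and Shawl, or the single circles of Shab, Irk1 and Task6. No circle of Shaw, sei, KCNQ, Irk2, Irk3, Ork1, sand, Task7 or galene was found in the rows analysed here.

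**Figure D5:**
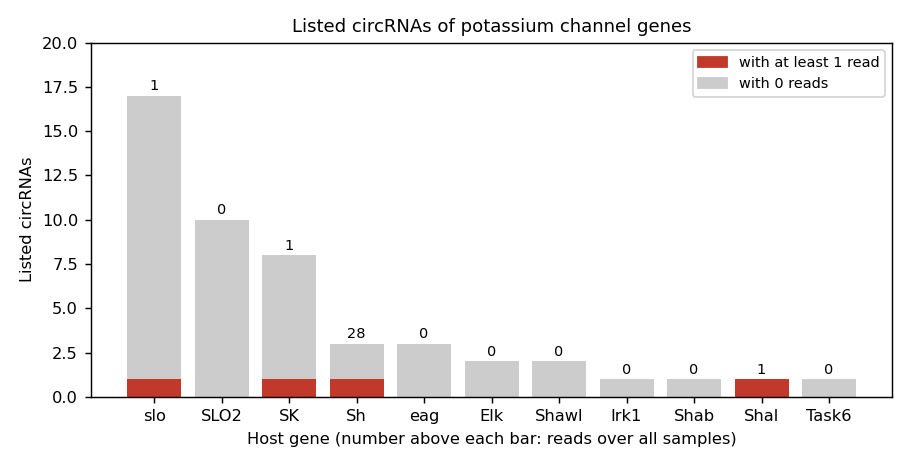
Bars give the number of listed circRNAs (y axis) for each of the 11 potassium channel genes with any, with those having at least 1 read in red, and the number above each bar gives the gene's reads over all samples. Sh had 28 reads on 1 of 3 circles, while slo, with 17 circles, had 1 read.

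Start codon circles were listed for other potassium channels too, in 7 cases. The single-exon circle of eag (ether-a-go-go, another voltage-gated channel gene whose mutants shake under ether) had 621 bases before the start codon and 79 coding bases, with introns of 14969 and 14474 bases on its sides. That of SLO2 had 581 and 80 bases, with introns of 3561 and 72033 bases. Both had 0 reads. The Shal circle had 364 untranslated and 202 coding bases and introns of 9251 and 582 bases, and it had 1 read. The Shawl circle had 388 untranslated and 44 coding bases and introns of 8523 and 21042 bases, with 0 reads. The remaining circles, of SK and Irk1, went the other way and held more coding than untranslated sequence. For SK, one circle had 0 untranslated and 1176 coding bases with 1 read, and another had 39 and 851 with 0 reads. That of Irk1 had 199 and 386 bases and 0 reads.

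Listed circles of genes for partner proteins of Shaker channels were also counted. Hk (Hyperkinetic, the beta subunit that binds the channel in the cytoplasm) had 3 listed circles, dlg1 (Discs large, the scaffold that clusters Shaker at synapses) had 11 and CASK had 2. All 16 had 0 reads, which allows a share with a read of up to 20.6% (exact upper limit). With 4.76% of all listed circRNAs having a read, 0 of 16 is an ordinary count in this table. No circle of qvr (sleepless, a membrane-anchored protein that acts on Shaker) was found in the rows analysed here.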

How the data were processed

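Ribosome-bound RNA from 4 fly head libraries was sequenced. The authors deposited whole-number read counts per circRNA over all samples, not normalized. The submitters' processing notes name cutadapt 1.9.1 and build dm3, and per the file headers ribosomal RNA reads were removed; no source used here names the caller or a minimum of reads. The labels tie the table's 4 columns for single head numbers to a lysis method, but not to a detergent name or a replicate. Those columns were not used, so buffers were not compared and no test was run.

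Spans (second minus first coordinate) were compared, by exact equality, with exon runs of the gene in Ensembl release 115 (BDGP6), found by RefSeq accession, then symbol. Where several transcripts matched, content was taken from one with the start codon and most exonic bases. The matching was tested on simulated data, with exon runs drawn from the same annotation. Such runs are found by construction, so this checks the code and not the exon assignments. Intervals are 95% exact Poisson or Clopper-Pearson, and the floor is 3 reads of 230.

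Named were all Sh circRNAs, the other 5 with most reads, the 5 closest in span with an exon match, and every potassium channel or partner circRNA with a read. Other genes named, for untranslated length or introns, were chosen after their values were seen. The gene and both gene lists were chosen with earlier results of these data known. Printed symbols are current ones from the accession. Python 3.11.15, pandas 2.3.3 and scipy 1.17.1 were used.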

Additional observations from a re-analysis of the deposited data

How the results depend on the processing

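The number of Sh circRNAs, the number with a read and the rank of the start codon circle kept their values under every alternative run, as did its start codon. The 28 reads were 21.6 per kb of span and 26.5 per kb of exon in the spliced form. Their share of 12.2% was 58.3% of the reads on chromosome X, from a smaller total of 48. With the length raised by 1, 0 of the 3 spans matched an exon run. Among circRNAs with a read, 49.6%, 33.9% and 4.96% were shorter than the start codon, internal and stop codon circles; among those with an exon match, 50.3%, 40.5% and 11.9%; on chromosome X, 46.3% were shorter than the internal circle. The next comparisons were chosen after seeing the data. With the shortest introns over all matching transcripts, 1 other circRNA in place of 2 had both introns at least as long, and with the fewest untranslated bases (909 for Sh) 19 in place of 11 held more; the cause was not tested. No paired analysis was run, because the labels do not tie the columns for single head numbers to a detergent name or replicate. Those columns were not used, so no library was left out and the spread of the 28 reads over libraries was not examined. RefSeq exons were not run. At 230 reads, a circRNA with an expected count below 3 can be missed.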
